A study of Homo sapiens with 12 samples.

Results

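The genes of oxidative phosphorylation were followed in control and SMARCA4 KO cells of 2 breast cancer cell lines. Members were taken by name, as every row of the deposited table whose symbol began with NDUF, UQCR, ATP5, COX and a digit, SDHA to SDHD, MT-ND, MT-CO, MT-CYB or MT-ATP. This gave 111 of the 11529 genes, of which 98 lie in the nuclear genome and 13 in the mitochondrial genome. Of the nuclear members, 76 are subunits of the complexes and 16 were counted as assembly factors. A further 2, ATP5S and ATP5SL, now named DMAC2L and DMAC2, were grouped with complex V by their older names. The other 4 are pseudogenes or a read-through transcript (SDHAP1, SDHAP3, COX7CP1 and NDUFC2-KCTD14). A few genes of the machinery carry other names, CYC1 of complex III and the electron carrier CYCS among them, and were counted apart.

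MDA-MB-468 and MDA-MB-231 are established lines of triple negative breast cancer, the first of the basal/stem-like and the second of the mesenchymal-like subtype in the study's classification. RNA of 3 control and 3 SMARCA4 KO samples was sequenced in each line, 12 samples in all, and the labels name no treatment and no time. The KO cells were made with a lentiviral CRISPR/Cas9 vector carrying 1 guide RNA against SMARCA4 and puromycin selection, and were polyclonal pools, while the controls are labelled wild type. That label is in the sample titles, while the sample descriptions call the same samples Control. For its blots the study used WT for parental cells and control for cells with a nontargeting vector. The sources used here do not say whether the sequenced controls carried that vector. Nothing in the labels says that the 3 samples of a group came from separate knockouts, so p-values measure the spread between these samples, which may be technical. Values are log2(FPKM + 1), where FPKM is the number of fragments scaled to transcript length and sequencing depth, and every log2 fold change below is on that scale.

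Mitochondria carry electrons from NADH and succinate to oxygen through complexes I to IV of the inner membrane, and the proton gradient built on the way drives ATP synthase, complex V. Complex II is encoded in the nucleus alone, whereas complexes I, III, IV and V each combine nuclear subunits with subunits made inside the organelle from its own circular DNA. That DNA is transcribed as long RNAs from both strands, which are cut into shorter RNAs, so that its genes share their promoters. Subunits become part of a working complex only with the help of assembly factors, which are not part of the finished enzyme. SMARCA4 is an ATPase of the SWI/SNF complexes, which move nucleosomes on nuclear chromatin.

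The targeted gene was checked first. SMARCA4 stood at 6.61, 6.62 and 6.68 in the MDA-MB-468 control samples and at 5.35, 5.48 and 5.61 in the KO samples, a log2 fold change of -1.16 ± 0.08 (SE, adjusted p = 0.0137). In MDA-MB-231 cells SMARCA4 fell from 6.10, 6.18 and 6.09 to 4.46, 4.64 and 4.56, with a log2 fold change of -1.57 ± 0.06 (adjusted p = 0.00143). Transcript was thus lower in all 6 KO samples and still present in each. All 8 epithelial markers looked up were in the table, with EPCAM at 8.24 ± 0.02 in controls of MDA-MB-468 and 3.89 ± 0.22 in those of MDA-MB-231, whereas the mesenchymal VIM stood at 1.82 ± 0.35 and 10.35 ± 0.10 (SD, n = 3). Of the mesenchymal markers SPARC and CDH2, of the receptors ESR1 and PGR, and of the markers of other cell types PTPRC, CD3E, PECAM1, VWF and PDGFRB were not among the 11529 genes, and CD68 was, at 1.40 and 6.60. With KO, 1 of the 8 epithelial markers was called in each line, KRT8 in MDA-MB-468 (0.50, adjusted p = 0.0318) and CDH1 in MDA-MB-231 (0.54, adjusted p = 0.0442), both higher in KO, and of the 3 mesenchymal markers in the table VIM fell in MDA-MB-231 KO cells by 0.39 (adjusted p = 0.0309). The receptor ERBB2 rose in MDA-MB-231 KO cells (0.22, adjusted p = 0.0406). The part of these shifts in the results below was not tested. The samples of a group correlated at 0.989 to 0.995 across genes, and the files used give no read depth. In bulk RNA, fewer cells of a kind and less RNA per cell cannot be told apart.

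The mitochondrial members lie head to tail on 16569 bases, 12 on the plus strand and MT-ND6 alone on the minus strand (GRCh37 sequence, GENCODE annotation). The copy of this sequence used by the authors with hg19 may not be the same. 3 neighbouring pairs overlap, which is shown here because reads of the shared bases cannot be given to 1 gene of the pair. In the following lines the shared bases are in capitals and the 12 bases on either side in lower case, plus strand, 5′ to 3′. MT-ATP8 and MT-ATP6 share 46 bases at chrM:8527-8572, MT-ND4L and MT-ND4 share 7 bases at chrM:10760-10766, and MT-ATP6 and MT-CO3 share only the base at 9207.
MT-ATP8 and MT-ATP6: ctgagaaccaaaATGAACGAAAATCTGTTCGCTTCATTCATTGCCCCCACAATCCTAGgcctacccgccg
MT-ND4L and MT-ND4: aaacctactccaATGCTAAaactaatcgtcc

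Of the nuclear members, NDUFAF2 and NDUFAF4 were called both with KO in MDA-MB-231 and in the difference of the KO change between lines, and their promoters are shown for that reason. The windows run from 250 bases before to 50 after the annotated start on the strand of the gene (RefSeq, GRCh38.p14), at chr5:60944955-60945254 on the plus strand for NDUFAF2 and at chr6:96897842-96898141 on the minus strand for NDUFAF4. Capitals mark the motifs searched for on both strands, which were the NRF1 core GCGCATGC, the ETS core CCGGAAG, the YY1 core AAGATGGC, the GC box GGGCGG, the CCAAT box and the TATA box TATAAA.
NDUFAF2: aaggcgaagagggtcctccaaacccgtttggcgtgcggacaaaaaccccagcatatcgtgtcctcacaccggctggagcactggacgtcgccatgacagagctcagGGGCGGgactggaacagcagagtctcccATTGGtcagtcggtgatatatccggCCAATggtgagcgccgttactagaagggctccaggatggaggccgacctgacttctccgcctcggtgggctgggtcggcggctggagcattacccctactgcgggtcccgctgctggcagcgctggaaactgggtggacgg
NDUFAF4: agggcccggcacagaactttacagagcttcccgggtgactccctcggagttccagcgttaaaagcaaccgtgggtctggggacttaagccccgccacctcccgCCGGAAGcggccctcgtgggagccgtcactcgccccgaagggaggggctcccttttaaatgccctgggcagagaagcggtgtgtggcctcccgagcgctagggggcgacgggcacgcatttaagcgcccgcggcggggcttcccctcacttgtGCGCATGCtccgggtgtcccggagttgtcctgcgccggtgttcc
The window of NDUFAF4 holds 1 NRF1 core and 1 ETS core, and that of NDUFAF2 holds 1 GC box and 2 CCAAT boxes. A window was at hand for 79 of the 94 nuclear members that are neither pseudogenes nor read-through. The NRF1 core, the letters bound by nuclear respiratory factor 1, was found in 18 of these 79 (22.8%), against 5.7% of the 8258 table genes with a window and 3.3% of all 27305 windows. The YY1 core was found in 11 of the 79 (13.9%, against 5.9% of table genes and 3.0% of all). By class it was in 11 of 64 subunit promoters and 0 of those of the 14 assembly factors. The NRF1 core leaned the other way, with 13 of the 64 (20.3%) and 5 of the 14 (35.7%). The ETS core was in 29.7% and 21.4%. With only 14 assembly factors these shares are coarse, and their difference was not tested. The ETS core was present in 27.8% of the 79 (20.1% of table genes, 10.7% of all). The GC box was in 58.2%, the CCAAT box in 34.2% and the TATA box in 8.9%, where table genes had 71.6%, 36.9% and 5.1% and all windows 44.6%, 35.7% and 12%. A match is a description of letters and not a measured binding site.

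The levels of the members set the scale. The mitochondrial members were the most abundant, and their summed FPKM made up 17.7%, 17.0% and 16.3% of the whole table in MDA-MB-468 control samples and 15.9%, 16% and 14.1% in MDA-MB-231 control samples. The 98 nuclear members together made up 2.02% to 2.08% and 1.73% to 1.92%. Per length, the largest mean FPKM over the 12 samples was that of MT-CO2 (16418), a copper-binding subunit of cytochrome c oxidase. MT-ATP8 (16356) followed, and the highest nuclear member was ATP5J2 (698), subunit f of ATP synthase. Among subunits of complex I, MT-ND4L (9960) was highest and NDUFV3 (21.4) lowest, and in complex II SDHA, the flavoprotein that oxidises succinate, led with 149. SDHA shares sequence with its pseudogenes SDHAP1 and SDHAP3, and NDUFC2 with the read-through NDUFC2-KCTD14, so the division of reads within these groups is uncertain. The same holds for MT-ATP8 and MT-ND4L, which overlap MT-ATP6 and MT-ND4. At 207 and 297 bases they are the shortest mitochondrial members, so their ranks by FPKM are uncertain.

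The first comparison asked how the members changed with the loss of SMARCA4 in MDA-MB-468 cells. No member was called, neither as a DEG (adjusted p below 0.05 with a log2 fold change beyond 0.5 in size), which 2.14% of all genes were, nor at an adjusted p under 0.05 with any fold (3.75% of all genes). At an unadjusted p under 0.05 there were 19 of 111 members and 2899 of 11529 genes, and the lowest adjusted p was 0.0551, for SDHAF2. The members split by genome. All 13 mitochondrial members had a log2 fold change below 0, with a median of -0.24, and 66 of the 98 nuclear members had one above 0, with a median of 0.07. Over all genes the median was 0.02, and 6177 of the 11529 were above 0. With quantile normalization, which gives every sample the same values by rank, 7 of the 13 were below 0 and 3 above, with a median of -0.11. Without KO replicate 3 the median of the 13 was -0.16. With FPKM rescaled to the same sum over nuclear genes the nuclear median was 0.01, with 53 of the 98 above 0 and 45 below. The samples of KO and control did not overlap in 8 of the 13, all lower in KO, and in 4 nuclear members lower and 14 higher, where 13.5% and 17.5% of all genes were so placed.

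MT-ND5, a proton-pumping subunit of complex I, stood at 11.77, 11.64 and 11.62 in MDA-MB-468 control samples and at 11.40, 11.32 and 11.45 in KO samples. The 2 groups did not overlap, and the log2 fold change of -0.29 ± 0.06 (SE, n = 3 and 3) had an adjusted p of 0.0641. MT-ND4, a neighbouring subunit, read 13.37, 13.31 and 13.27 against 13.10, 13.04 and 13.10, with a log2 fold change of -0.24 ± 0.05 (adjusted p = 0.0598). MT-ND6 had -0.28 ± 0.07 and MT-ND4L -0.27 ± 0.08, again with no overlap. MT-CO3 and MT-CO1 of cytochrome c oxidase had -0.26 ± 0.13 and -0.26 ± 0.09, and their KO samples lay further apart, from 13.52 to 14.01 for MT-CO3. MT-CO2 was the member nearest to no change, at 14.05, 14.18 and 14.15 in control and 14.13, 14.11 and 14.07 in KO samples. The remaining mitochondrial members lay between MT-ATP8 (-0.26 ± 0.10) and MT-CYB (-0.16 ± 0.07). Their summed share of the table ran from 14% to 15.4% in KO samples, each below the lowest control sample.

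On the nuclear side the values with a mean over 2 that lay highest were ATP5D, the delta subunit of the ATP synthase rotor (0.29 ± 0.08, adjusted p = 0.0941), ATP5SL, named for its likeness to ATP5S (0.26 ± 0.11), SDHAF2, which helps attach flavin to SDHA (0.24 ± 0.05), UQCRFS1, the Rieske iron-sulfur subunit of complex III (0.23 ± 0.08), and COX8A of complex IV (0.23 ± 0.06). SDHAF2 read 4.96, 4.98 and 5.03 in control and 5.19, 5.27 and 5.22 in KO samples. NDUFAF1, an assembly factor of complex I, was the lowest at -0.28 ± 0.12 (adjusted p = 0.206). Subunits of complex I had a median of 0.08 over 37 genes, those of complex III 0.05 over 8, those of complex IV 0.06 over 12 and those of complex V 0.04 over 15. Without KO replicate 3 the nuclear members above 0 numbered 85 of 98, and without KO replicate 1 they numbered 55, so single samples moved this count.

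**Figure D1:**
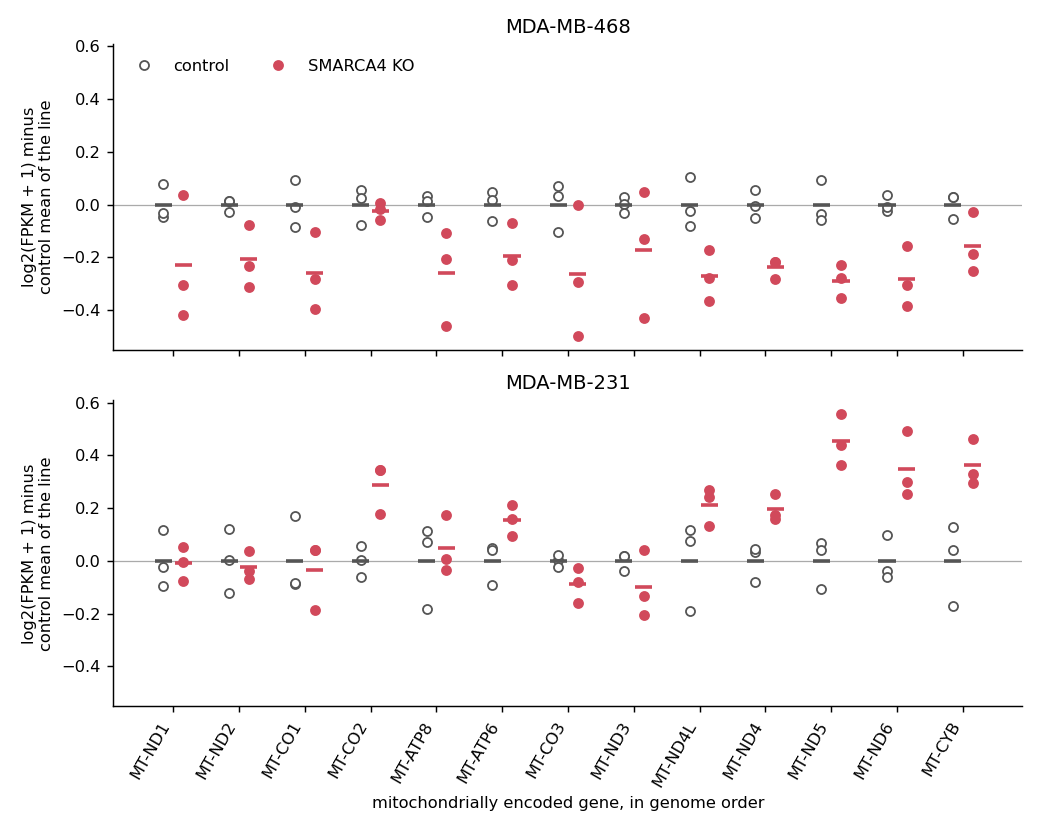
Each point is the log2(FPKM + 1) of a mitochondrially encoded gene in 1 sample minus the mean of the 3 control samples of that line, for control (open) and SMARCA4 KO (filled) samples, with bars at the group means and genes in genome order on the x axis. In MDA-MB-468 the KO means lie from -0.02 to -0.29, and in MDA-MB-231 they run from -0.10 for MT-ND3 to 0.45 for MT-ND5.

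In MDA-MB-231 cells the same comparison gave other values. No member was a DEG (3.7% of all genes were), and 5 had an adjusted p under 0.05 at any fold, which is 4.5% of the members where 10.8% of all genes passed. MT-ND5 and MT-CO2 rose, and NDUFAF4, NDUFAF2 and NDUFAF6 fell. The last 3 are assembly factors of complex I, and 7 members carry the NDUFAF name of such factors. Of the 13 mitochondrial members, 8 were above 0, with a median of 0.16, and 64 of the 98 nuclear members were below 0, with a median of -0.06. Of all 11529 genes 5487 were above 0 and 5935 below. With the sum over nuclear genes set equal, 11 of the 13 were above 0 and 55 of the 98 below. With quantile normalization the mitochondrial median was 0.03, and neither MT-ND5 nor MT-CO2 passed. KO and control samples did not overlap in 7 mitochondrial members that were higher and 1 that was lower in KO, and in 3 nuclear members higher and 19 lower, against 16.6% and 19.4% of all genes.

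MT-ND5 read 11.45, 11.42 and 11.28 in MDA-MB-231 control samples and 11.94, 11.75 and 11.82 in KO samples, a log2 fold change of 0.45 ± 0.07 (SE, adjusted p = 0.0251). All 3 KO samples were above all 3 controls. MT-CO2 rose from 13.67, 13.78 and 13.73 to 14.07, 14.07 and 13.91, by 0.29 ± 0.07 (adjusted p = 0.0478). MT-CYB, the cytochrome b of complex III, had 0.36 ± 0.09 (adjusted p = 0.061) and MT-ND6 0.35 ± 0.08 (adjusted p = 0.0518), neither past the threshold. MT-ND1, MT-ND2 and MT-CO1 lay within 0.04 of 0. The summed share of the 13 in the table was 17.5%, 16.4% and 16.1% in KO samples, all above the highest control sample, and control replicate 3 was the lowest of the controls.

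NDUFAF4, which helps to build an early intermediate of complex I, read 4.78, 4.69 and 4.83 in control and 4.30, 4.26 and 4.45 in KO samples, a fall of 0.43 ± 0.07 (adjusted p = 0.0236). NDUFAF2, which binds a late intermediate, read 6.42, 6.28 and 6.43 against 5.99, 6.03 and 5.95, with a log2 fold change of -0.39 ± 0.06 (adjusted p = 0.0206). NDUFAF6 read 4.59, 4.50 and 4.67 against 4.11, 4.21 and 4.29, with -0.38 ± 0.07 (adjusted p = 0.033). In each of the 3 the groups did not overlap. Of the other 4 NDUFAF members, NDUFAF5 had -0.28 ± 0.09 and NDUFAF1 -0.20 ± 0.06, NDUFAF3 was at 0.00 ± 0.06, and NDUFAF7 had 0.11 ± 0.05. Among the 76 nuclear subunits none passed, and NDUFB5 (-0.31 ± 0.17) and NDUFA11 (-0.29 ± 0.11), accessory subunits of complex I, were the lowest. The pseudogenes had the extreme values, SDHAP3 with 0.72 ± 0.20 (adjusted p = 0.0719) and COX7CP1 with -0.73 ± 0.64. Both were low in this line, at 1.39 to 4.73 FPKM for SDHAP3 and 0 to 4.99 FPKM for COX7CP1.

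The 5 calls in MDA-MB-231 cells needed the full number of samples. Leaving out any 1 of them left 0 or 1 call, while the log2 fold changes stayed between 0.40 and 0.50 for MT-ND5, 0.26 and 0.34 for MT-CO2, -0.49 and -0.39 for NDUFAF4, -0.43 and -0.36 for NDUFAF2 and -0.43 and -0.33 for NDUFAF6. NDUFAF2 stayed called only without control replicate 2 and NDUFAF4 only without KO replicate 3. Control replicate 3, in which the nuclear members summed to 13463 FPKM against 11662 and 12123 in the other controls, also carried the nuclear direction: without it the nuclear median was -0.00057 and 50 of 98 were below 0.

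**Figure D2:**
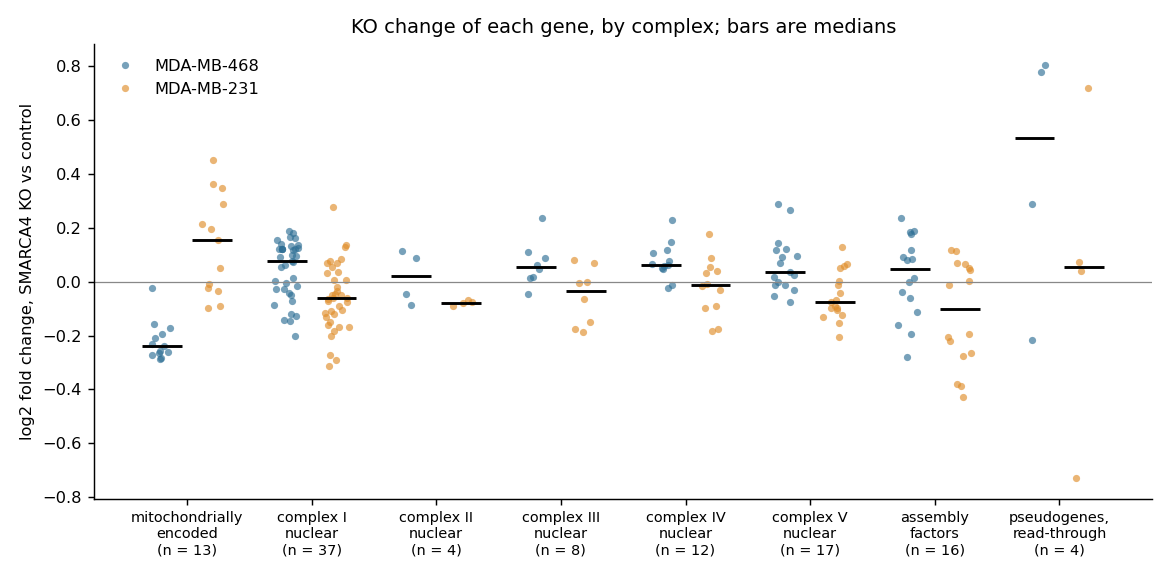
The y axis gives the log2 fold change of SMARCA4 KO against control for each of the 111 genes, with MDA-MB-468 in blue and MDA-MB-231 in orange, in groups by genome, complex and class, and bars at the medians. The medians of the mitochondrial genes are -0.24 (MDA-MB-468) and 0.16 (MDA-MB-231), and those of the nuclear subunits lie between -0.08 and 0.08.

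Whether KO changed a member unlike in both lines was tested directly, in 1 fit of all 12 samples, as the log2 fold change in MDA-MB-468 minus that in MDA-MB-231. It passed an adjusted p under 0.05 for 11 members, 9.91% of them against 14.7% of all genes, and for 4 the size was over 0.5, against 8.71% of all genes. Of the 13 mitochondrial members 7 passed, all with a lower value in MDA-MB-468, and all 13 differences were below 0, with a median of -0.31. Of the 98 nuclear members 4 passed, all with a higher value in MDA-MB-468, and 81 differences were above 0. Of all 11529 genes 6117 had a difference above 0. After rescaling to the sum over nuclear genes the mitochondrial differences were still all below 0, whereas 47 nuclear ones were above 0 and 51 below. With quantile normalization 11 of the 13 were below 0, the median was -0.12, and 1 of the 7 mitochondrial calls, that of MT-ND6, was left.

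Among the 11 members that passed, MT-ND5 had the largest difference, -0.74 ± 0.11 (SE, adjusted p = 0.00163), followed by MT-ND6 with -0.63 ± 0.12 (adjusted p = 0.00592). MT-ND6 read 11.93, 11.87 and 11.88 in MDA-MB-468 control and 11.74, 11.59 and 11.51 in KO samples, and 11.49, 11.46 and 11.62 in MDA-MB-231 control and 12.01, 11.82 and 11.78 in KO samples. In each line its groups did not overlap, with opposite order. The library kit keeps the strand of the RNA, but whether the estimate of MT-ND6 used it is not given in the sources used here. The libraries were poly(A)-selected, and the part of this selection in the MT-ND6 values was not tested. MT-CYB differed by -0.52 ± 0.12 (adjusted p = 0.0201), reading 11.92 to 12.01 in control and 11.72 to 11.95 in KO samples of MDA-MB-468, and 11.19 to 11.49 against 11.66 to 11.82 in MDA-MB-231. MT-ND4L (-0.49 ± 0.13), MT-ND4 (-0.43 ± 0.09), MT-ATP6, the proton channel of ATP synthase (-0.35 ± 0.10), and MT-CO2 (-0.31 ± 0.09) passed with smaller differences. MT-ND4L and MT-ND4 are overlapping neighbours and not separate evidence, nor are MT-ATP6 and MT-ATP8.

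Among nuclear members NDUFAF4 differed by 0.62 ± 0.15 (adjusted p = 0.0234). In MDA-MB-468 cells it read 5.18, 5.57 and 5.41 in control and 5.62, 5.72 and 5.39 in KO samples, which overlap. NDUFAF4 lies at chr6:97337191-97345767 on the minus strand and NDUFAF2 at chr5:60241004-60450358 on the plus strand (GRCh37). NDUFAF2 differed by 0.47 ± 0.13 (adjusted p = 0.0298), with 5.25, 5.35 and 5.38 in control and 5.22, 5.58 and 5.44 in KO samples of MDA-MB-468. UQCRFS1 differed by 0.42 ± 0.12 (adjusted p = 0.0344) and ATP5D by 0.41 ± 0.11 (adjusted p = 0.0264). Neither was called within a line, and both were above 0 in MDA-MB-468 (0.23 and 0.29) and below 0 in MDA-MB-231 (-0.19 and -0.13).

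When each sample was left out in turn, MT-ND5, MT-ND6 and MT-ND4 passed in all 12 fits, MT-CYB in 10 and NDUFAF4 in 9. ATP5D passed in 6, MT-ND4L in 7, UQCRFS1 in 4, NDUFAF2 and MT-ATP6 in 3 and MT-CO2 in 2, and most of the largest adjusted p-values came without MDA-MB-468 KO replicate 2, which left 3 of the 11. Without MDA-MB-231 KO replicate 1 there were 4 calls, of which 3 were among the 11. There were 6 without either of MDA-MB-231 control replicates 1 and 3, MDA-MB-468 control replicates 1 and 2 or MDA-MB-231 KO replicate 2. Blocking on replicate numbers kept 7 of the 11.

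**Figure D3:**
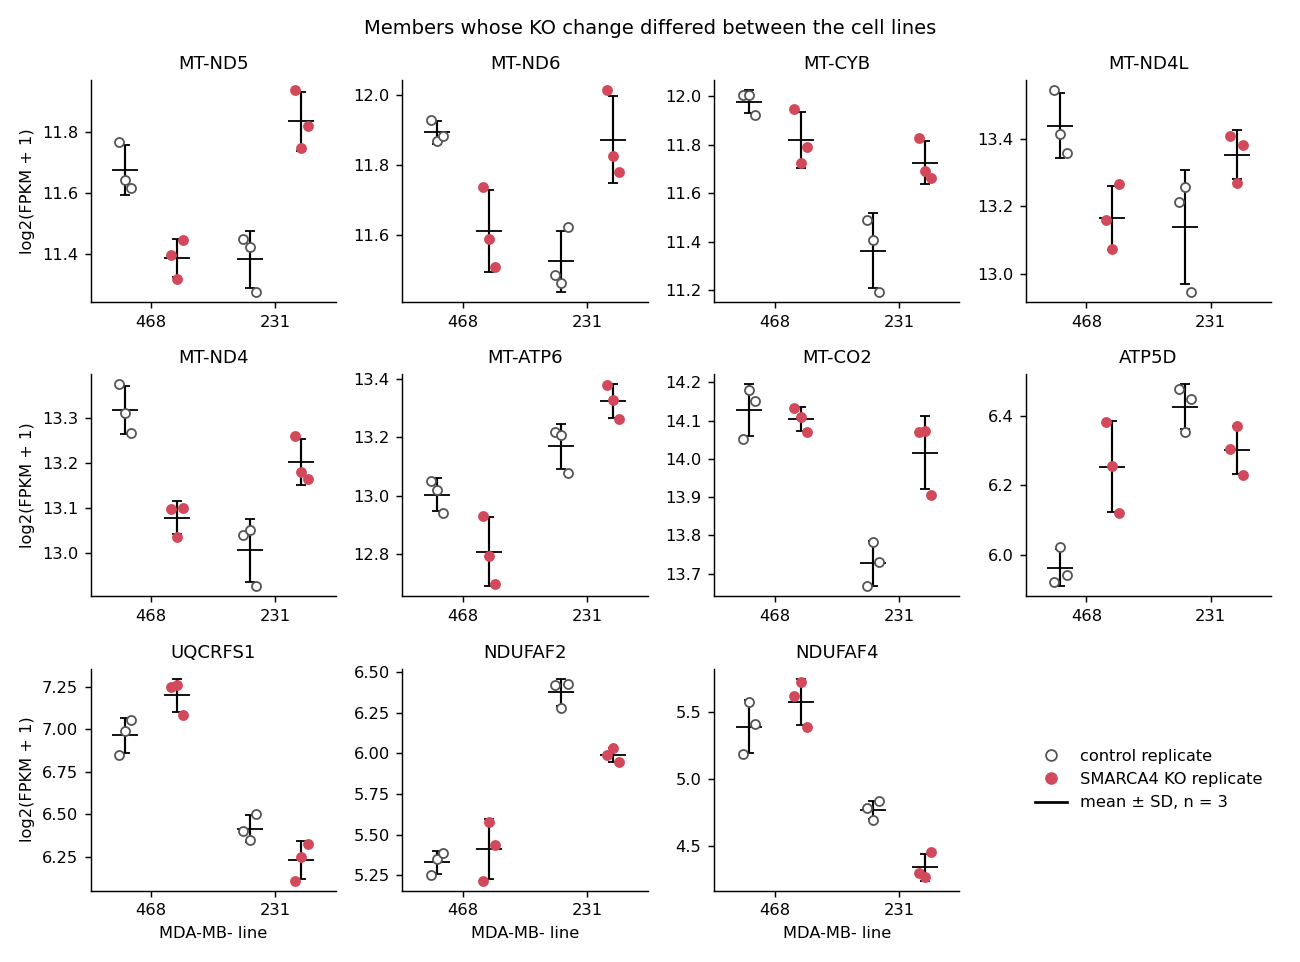
Each panel gives log2(FPKM + 1) of 1 of the 11 members on its own y axis, for MDA-MB-468 and MDA-MB-231 control (open) and SMARCA4 KO (filled) samples, with the mean ± SD of 3 samples. The control and KO means of MT-ND5 are 11.68 and 11.39 for MDA-MB-468, and 11.38 and 11.84 for MDA-MB-231, where those of NDUFAF4 are 4.77 and 4.34.

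The control samples of both lines were then compared, with the same control samples that entered the KO comparisons. The lines differed at most genes. Of the members 89 passed an adjusted p under 0.05, 80.2% of them against 83.8% of all genes, and 47 passed the DEG threshold, where 64.1% of all genes did. The members split unevenly, with 57 higher and 32 lower in MDA-MB-468, while 42.4% of all genes were higher and 41.5% lower. Their median was 0.20, against 0.01 over all genes. Subunits of complex I (median 0.24, 19 higher and 9 lower), II (0.38, 3 and 1), III (0.18, 4 and 2) and IV (0.18, 7 and 2) leaned to MDA-MB-468, and those of complex V (-0.19, 6 and 7) did not.

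Within a complex the subunits went both ways. ATP5J, subunit F6 of the peripheral stalk of ATP synthase, read 8.14, 8.19 and 8.22 in MDA-MB-468 and 7.05, 7.09 and 7.18 in MDA-MB-231 controls, a difference of 1.07 ± 0.07 (SE, adjusted p = 2.4e-06). ATP5E, the epsilon subunit of the rotor, read 4.85, 4.93 and 4.95 against 5.92, 5.92 and 5.97, a difference of -1.03 ± 0.07 (adjusted p = 2.6e-06). Of the other stalk subunits ATP5O was also higher in MDA-MB-468 (0.84 ± 0.08), as were ATP5H (0.61 ± 0.09) and ATP5F1 (0.60 ± 0.08). The alpha and beta subunits of the catalytic head, ATP5A1 and ATP5B, were lower, by only -0.26 ± 0.07 and -0.23 ± 0.07.

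In complex I the accessory subunit NDUFS5 had the highest level among its nuclear subunits, at 9.40, 9.56 and 9.52 in MDA-MB-468 and 8.27, 8.45 and 8.56 in MDA-MB-231, and differed by 1.07 ± 0.09. NDUFB9 (0.95 ± 0.08) and NDUFV2, which holds an iron-sulfur cluster of the NADH-oxidising arm (0.93 ± 0.08), were next. NDUFB8 was lower in MDA-MB-468, at 5.49, 5.45 and 5.35 against 6.39, 6.46 and 6.61, a difference of -1.06 ± 0.08. The assembly factors NDUFAF2 (-1.05 ± 0.08) and NDUFAF3 (-0.97 ± 0.08) were lower too, and NDUFAF7 (0.80 ± 0.07) and NDUFAF4 (0.62 ± 0.11) higher. The core subunit NDUFV1 was higher in MDA-MB-468 (0.63 ± 0.07), and NDUFS1 had -0.05 ± 0.07. Of the 7 nuclear core subunits 4 passed, all higher, and of the 30 accessory subunits 15 were higher and 9 lower.

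UQCRB, a small subunit of complex III near the ubiquinone site, had the lowest value of the subunits, at 6.67, 6.68 and 6.52 in MDA-MB-468 and 7.69, 7.83 and 7.81 in MDA-MB-231, a difference of -1.15 ± 0.08. UQCRFS1 (0.55 ± 0.08) and UQCRC1 (0.33 ± 0.07) were higher. In complex IV COX4I1, the common form of subunit 4, differed by 0.99 ± 0.08 and COX6B1 by 0.83 ± 0.08, whereas COX6A1 was lower by -0.44 ± 0.11. COX7A2 (0.09 ± 0.08) and COX7B (-0.15 ± 0.11) did not pass, and COX7A2L, a supercomplex factor related to COX7A2, had 0.20 ± 0.07 (adjusted p = 0.0302). NDUFA4, now counted to complex IV, differed by 0.48 ± 0.08 and COX8A by -0.22 ± 0.09. In complex II SDHA was higher by 0.58 ± 0.08 and SDHB lower by -0.22 ± 0.07. Of the mitochondrial members MT-CO1 was higher in MDA-MB-468 (0.71 ± 0.09) and MT-ND2 lower (-0.87 ± 0.08). In all, 8 of the 13 passed as higher and 4 as lower, and MT-ATP6 (-0.17 ± 0.07) did not pass.

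**Figure D4:**
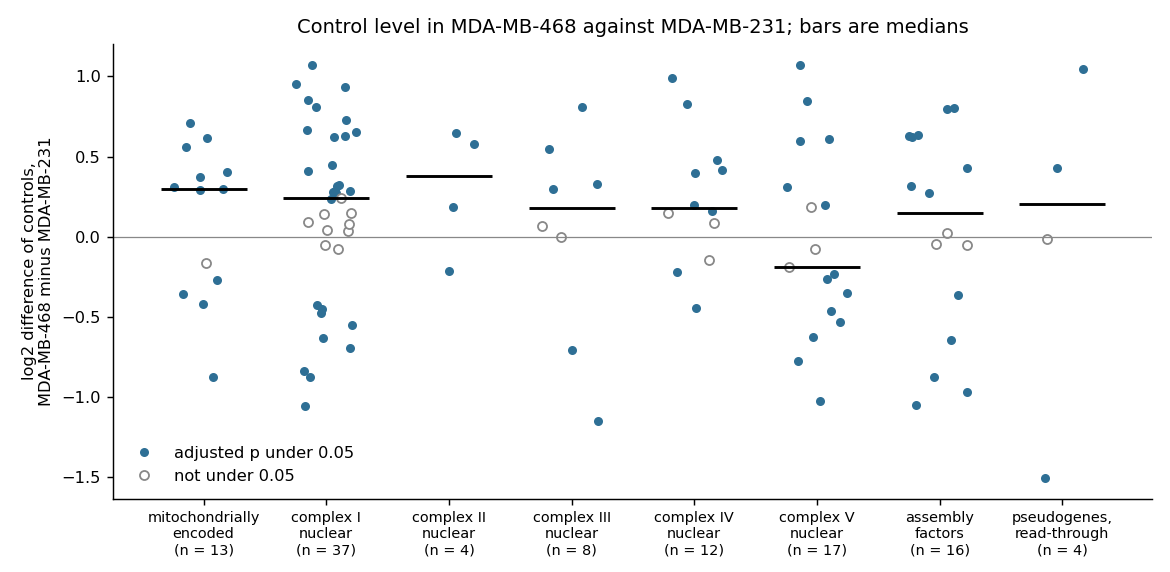
The y axis gives the log2 difference of the control means, MDA-MB-468 minus MDA-MB-231, for each of the 111 genes in groups on the x axis, filled where the adjusted p was under 0.05, with bars at the medians. Each larger group holds genes on both sides of 0, from -1.15 for UQCRB to 1.07 for ATP5J among the subunits.

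The 3 genes of the c subunit, ATP5G1, ATP5G2 and ATP5G3, encode the same mature protein of the proton-driven ring behind different targeting sequences, so their levels per length can be read as shares. ATP5G3 made up 46.9%, 49.1% and 47.3% of their summed FPKM in MDA-MB-468 control samples and 32.5%, 33.4% and 34.0% in MDA-MB-231 control samples. ATP5G1 made up 22.7%, 22.9% and 24.0% against 35.9%, 33.3% and 34.6%. The lines did not overlap in either share. As levels, ATP5G3 was higher in MDA-MB-468 by 0.31 ± 0.08 (adjusted p = 0.00577), and ATP5G1 and ATP5G2 were lower by -0.78 ± 0.07 and -0.35 ± 0.07. In MDA-MB-231 KO samples ATP5G1 held 30.5%, 30.3% and 33.1%, below each control sample, and its log2 fold change was -0.21 ± 0.09 (adjusted p = 0.17). In MDA-MB-468 KO samples ATP5G3 stayed the largest, with 44.6% to 47.0%.

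**Figure D5:**
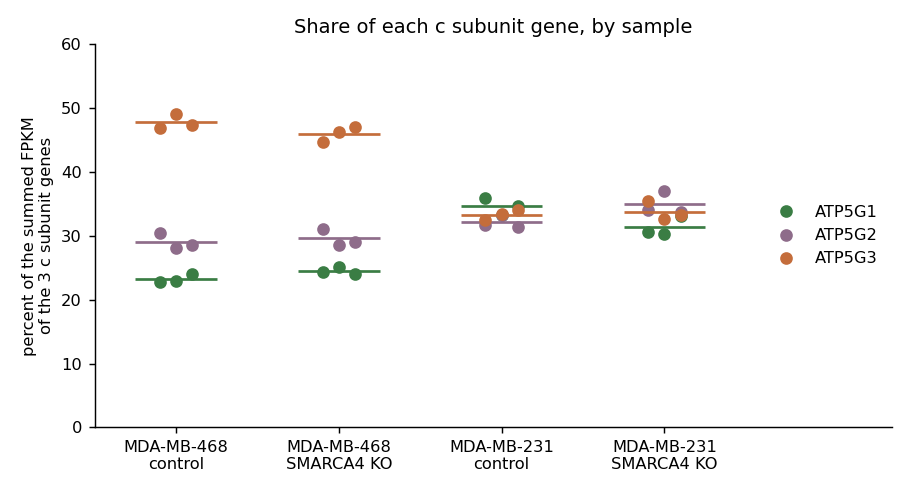
The y axis gives the percentage of the summed FPKM of ATP5G1, ATP5G2 and ATP5G3 that each gene held in each sample, with points for the 3 samples of a group and lines at the means. ATP5G3 lies from 44.6% to 49.1% in MDA-MB-468 and from 32.5% to 35.4% in MDA-MB-231 samples.

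Related genes that the name rule did not take were counted by list, and their shares are to be read against the 3.75% of all genes that passed in MDA-MB-468, the 10.8% in MDA-MB-231 and the 14.7% in the difference. Of 17 other subunits and electron carriers, ETFA, which passes electrons to the ubiquinone pool, fell in MDA-MB-468 KO cells (-0.38, adjusted p = 0.0334), and none passed in MDA-MB-231. CYCS, cytochrome c itself, differed between the lines in its KO change by 0.50 (adjusted p = 0.0223). Of 35 assembly factors with other names none passed in MDA-MB-468, while for MDA-MB-231 cells CHCHD10 rose by 0.40 while BCS1L (-0.34), CMC2 (-0.31), TMEM70 (-0.26) and SCO2 (-0.25) fell (14.3% of the list, against 10.8% of all genes). The difference between lines passed for 7 of the 35 (20%, against 14.7% of all genes), all higher in MDA-MB-468, and was largest for SCO2, a copper chaperone of cytochrome c oxidase (0.54, adjusted p = 0.00394).

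Of 31 genes for the upkeep and transcription of mitochondrial DNA, none passed in MDA-MB-468, while for MDA-MB-231 cells TOP1MT, the mitochondrial topoisomerase, rose (0.35, adjusted p = 0.0208) and TRMT10C, part of the RNA-cutting ribonuclease P, fell (-0.28). TOP1MT was also called in the difference (-0.42, adjusted p = 0.00971), as was HSD17B10 (0.36). Of 12 regulators of the subunit genes, GABPB1, a partner of the ETS factor GABPA, fell in MDA-MB-231 (-0.30, adjusted p = 0.0184) and differed between the lines by 0.48, and HIF1A differed by -0.43. Of 24 genes of the tricarboxylic acid cycle and pyruvate dehydrogenase, FH, the fumarase (-0.45), and SUCLG2 (-0.27) fell in MDA-MB-231 and PDK1 (0.65) and PDK2 (0.35), kinases that switch pyruvate dehydrogenase off, rose. The KO change of FH (0.56), PDK1 (-0.59) and PDK3 (-0.51) differed between the lines. Of 34 genes of import, carriers and cristae, SLC25A4 (-0.37), SLC25A3 (-0.35), TIMM17A (-0.34) and TIMM23 (-0.27) fell in MDA-MB-231 (11.8%), none passed in MDA-MB-468, and 9 differed (26.5%), all with a higher value in MDA-MB-468, from TIMM23 (0.33) to TIMM44 (0.57). Over the same lists the medians in MDA-MB-231 ran from -0.16 for import to -0.02 for the regulators, and in MDA-MB-468 from -0.06 for the cycle to 0.10 for import.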

How the data were processed

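RNA of 12 samples was sequenced by the authors from poly(A)-selected stranded libraries, trimmed with Trimmomatic, aligned to hg19 with STAR and quantified with RSEM. The authors deposited log2 values, log2(FPKM + 1), of 11529 genes after removing genes with a mean or an SD of FPKM under 1; FPKM values were regained from them where levels are given. Read depth is unknown, so no interval or floor was computed, and precision is limited by 3 samples per group. 18 rows with a date for a symbol were tested and not named.

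KO and control were compared in each cell line alone, and the control samples of both lines with each other, with the moderated test of limma 3.58.1 (R 4.3.3, no intensity trend), with Benjamini-Hochberg adjustment over all genes. The difference between lines was the interaction contrast of 1 fit of 12 samples in 4 groups. The code was tested on simulated data. Named were the members past the DEG threshold, the 5 highest and 5 lowest values per comparison with a mean over 2, all mitochondrial members, the most abundant of each complex, isoforms and core subunits; of the other lists, the 3 highest and 3 lowest that passed. Further members were named after their values were seen where a count of 5 or fewer or a contrast within a complex concerned them. Members and lists were chosen with earlier results of these data known. The values of 1 member that this rule names are not reported here.

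Replicate numbers come from the sample titles. The p numbers of the descriptions, whose meaning is not given, run from 10 to 12 in MDA-MB-231 control and KO samples alike. All are higher in MDA-MB-468, so p number and cell line cannot be told apart where the lines are compared. In MDA-MB-468 the p numbers run from 26 to 28 in controls and from 25 to 27 in KO samples. They thus give other pairs, and the block by p number joined 25 and 28. Deviations of equally numbered control and KO samples correlated at 0.25, 0.16 and 0.12 in MDA-MB-468, where equal numbers were taken as possible pairs. In MDA-MB-231 they correlated at -0.05, 0.07 and -0.11, and the numbers were not taken as pairs. The values reported come from fits without a block, and the block is an alternative. The SEs and adjusted p-values of MDA-MB-468 thus leave a possible pairing out. With limma blocked there by replicate number the lowest adjusted p of a member was 0.0813, and by p number 0.140. Symbols were matched to GENCODE release 44 on GRCh37 by current name for 94 members and by an older name for 17. Promoters came from RefSeq. Python 3.11.15, numpy 2.4.6 and matplotlib 3.10.9 were used. Alternatives were other pseudocounts, filters, scalings, a trend, a joint fit, replicate blocks and leaving out each sample.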

Additional observations from a re-analysis of the deposited data

Results flagged for a closer look

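The KO change of 11 members differed between the cell lines by the interaction test of limma over all genes. As log2 fold change in MDA-MB-468 minus that in MDA-MB-231, the difference was -0.74 for MT-ND5, -0.63 for MT-ND6, -0.52 for MT-CYB, -0.49 for MT-ND4L, -0.43 for MT-ND4, -0.35 for MT-ATP6 and -0.31 for MT-CO2, and 0.62 for NDUFAF4, 0.47 for NDUFAF2, 0.42 for UQCRFS1 and 0.41 for ATP5D. The share of members that passed (9.91%) was below that of all genes (14.7%), while 7 of the 11 came from the 13 mitochondrial members. The 13 genes share primary transcripts and were measured in the same libraries, so they are not independent of each other. The MDA-MB-231 control samples had 15.9%, 16% and 14.1% of the table's FPKM in these 13 genes; their part in the difference was not tested.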

How the results depend on the processing

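In MDA-MB-468 cells the 0 members at an adjusted p under 0.05 became 1 with quantile normalization and 5 with 1 fit of all 12 samples. With an intensity trend they became 4, and the 1 DEG among them was a pseudogene or the read-through. Leaving out each sample gave 0 to 1 (1 without KO replicate 1). Blocking by replicate number or by the p number of the descriptions left 0. In MDA-MB-231 cells the 5 became 8 after rescaling to the sum over nuclear genes. They became 9 with a filter on a mean log2 value over 2, 10 with a trend and 8 with 1 fit of all samples. In each of these last 3 settings 1 was a DEG, a pseudogene. The replicate block, whose numbers were not taken as pairs there, left 0, and leaving out each sample left 0 to 1. In the difference between lines the 11 became 5 with quantile normalization, 7 with the replicate block and 3 to 10 with a sample left out, and the 4 over 0.5 became 1 with quantile normalization, 0 at a limit of 1 and 2 to 6 with a sample left out. Of the 11, 4 were higher and 7 lower; the split was 4 and 1 with quantile normalization and 1 and 7 of 8 after rescaling to nuclear genes. Under quantile normalization the difference of MT-CO2 turned to 0.10. The difference of MT-CO1, -0.23 in the main fit and called in neither, turned to 0.37. That setting gives every sample the same values by rank, so a change among the most abundant genes shows only where their ranks change. The members' median difference of 0.07 was -0.026 after rescaling. Between the control lines 8 instead of 47 passed at a limit of 1. Higher and lower calls in MDA-MB-231, 2 and 3, became 1 and 4 with quantile normalization, where 3 of the 5 were shared (NDUFAF2, NDUFAF4 and NDUFAF6) and no mitochondrial member was called, and 4 and 4 after rescaling. The cause of these changes was not tested. Unknown depth limits what can be said of low values.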

Other observations

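The 2 ribosomal RNAs of mitochondria, not members by name, were in the table. MT-RNR2, the large one, read 12.41, 12.48 and 12.34 in MDA-MB-468 control and 12.17, 11.94 and 11.69 in KO samples, with a log2 fold change of -0.48 ± 0.13 (adjusted p = 0.0907). In MDA-MB-231 it read 12.51, 12.50 and 12.51 in control and 12.99, 12.66 and 12.49 in KO samples, and its KO change differed between the lines by -0.69 ± 0.18 (adjusted p = 0.0301). MT-RNR1, the small one, differed by 0.13 ± 0.19. The part of the poly(A) selection in the values of both was not tested.

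Along the mitochondrial genome, the KO change of the 13 members in MDA-MB-231 correlated with the start position at Pearson r = 0.68 (Spearman 0.61), and in MDA-MB-468 at -0.13 (Spearman -0.27). These describe 13 genes of the same libraries, which overlap and share transcripts, and carry no test.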
